A study of Arabidopsis thaliana with 18 samples.

Results

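The transcripts of 35 nuclear genes for the photosystem cores and the photosynthetic electron transport chain of Arabidopsis thaliana were compared in the cotyledon, apical hook and hypocotyl of dark-grown seedlings. They are named by AGI locus code as nuclear-encoded PSA, PSB, PET, ferredoxin, FNR, ATP synthase and PGR5/PGRL1 genes. They make up 35 of the 26073 genes listed per library. The naming uses no measured value, but the members were chosen with earlier results of these data known. The set is not complete, since PETM and FD3, among others, are described apart. The set holds 12 genes of photosystem I, 11 of photosystem II, 3 of the cytochrome b6f complex and plastocyanin, 4 of ferredoxin and its NADP+ reductase, 2 of the ATP synthase and 3 of PGR5-dependent cyclic flow. The mutant pifq, named in the labels as pif1pif3pif4pif5, was set beside wild type (WT), and the ecotype of each genotype was Col-0. All seedlings were 4 d old, from MS plates with 3% sucrose kept at 22 °C in continuous darkness. The 6 groups are pifq cotyledon, WT cotyledon, pifq hook, WT hook, pifq hypocotyl and WT hypocotyl, with 3 libraries each and 18 in all. The labels do not give the alleles in pifq or the number of seedlings in a library.

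In the thylakoid membrane, photosystem II takes electrons from water and passes them through plastoquinone, the cytochrome b6f complex and plastocyanin to photosystem I. Photosystem I reduces ferredoxin, and ferredoxin-NADP+ reductase (FNR) hands the electrons on to NADP+, while the proton gradient drives the ATP synthase. The chloroplast genome encodes the reaction centres, and the nucleus encodes many of the subunits around them, which are imported into the plastid. A seedling in the dark holds etioplasts instead of chloroplasts, and the PIF transcription factors, which bind G-box DNA, hold back many nuclear genes for photosynthesis until light removes the PIF proteins.

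Levels are in FPKM, reads or read pairs scaled by exon length and library depth, which allows genes to be compared per length. The libraries held 12955815 to 20701103 reads or read pairs, and 1 such read stood for 0.0483 to 0.0772 FPKM when the exons span 1 kb. All 35 genes were above 1 FPKM in all 18 libraries. Their group means ran from 2.73 FPKM for PSAG in WT hypocotyls to 4112 FPKM for PSBR in pifq cotyledons. A gene is called higher or lower at an adjusted p under 0.05, from limma with Benjamini-Hochberg adjustment over all 19349 genes tested, and log2 changes were computed after adding 1 FPKM, so those of low genes are understated.

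The label of the mutant was checked on its own loci. PIF3 averaged 3.16 ± 0.44 FPKM in pifq cotyledons and 54.4 ± 2.8 FPKM in WT cotyledons (SD, n = 3 each), and PIF3 and PIF5 were called lower in pifq in all 3 organs. PIF1 and PIF4 went the other way in hypocotyls, where both were called higher in pifq, by up to 1.47 on the log2 scale. In hooks PIF1 was called lower, at -0.73, and PIF4 was not called, and in cotyledons neither was called. With the alleles not given, the transcripts of PIF1 and PIF4 check nothing. The hook markers HLS1 and GASA4 summed to 1411 to 1543 FPKM in pifq hooks, against 11060 to 13900 FPKM in WT hooks and 796 to 1559 FPKM in WT cotyledons, and were called lower in pifq hooks. In pifq cotyledons they summed to 837 to 1087 FPKM. Nearly all of this was GASA4, which was called higher in hook than in cotyledon in each genotype, at 0.63 on the log2 scale in pifq and 3.55 in WT. HLS1 did not mark the hook, with a log2 change of -0.16 in pifq, not called, and -0.87 in WT, called lower. The pifq hook label thus has little support from HLS1 and GASA4. The 5 shoot meristem and boundary markers did separate pifq hooks from pifq cotyledons, with sums of 61.85 to 112.1 FPKM and 2.51 to 4.05 FPKM. In pifq hypocotyls they summed to 109.9 to 163.4 FPKM, so they do not mark the hook alone. Root markers summed to at most 1.34 FPKM in any cotyledon or hook library, with all 5 under 1 FPKM on average. In hypocotyls they summed to 0.54 to 6.70 FPKM in pifq and 1.88 to 3.97 FPKM in WT. Replicate 2 of the pifq hooks stood apart on the first principal component over all genes tested, at -19.1 against -53.3 and -54.8 for the other pifq hook libraries.

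Across the set, the transcripts of pifq were higher in every organ. Summed over the 35 genes, pifq cotyledons held 44550, 53530 and 52930 FPKM, against 14900, 16990 and 16290 FPKM in WT cotyledons. The pifq hooks held 27420, 21120 and 26800 FPKM, against 8203, 6281 and 5544 FPKM in WT hooks. The pifq hypocotyls held 9893, 7054 and 9116 FPKM, against 2419, 2770 and 2724 FPKM in WT hypocotyls. In no organ did the 3 pifq libraries and the 3 WT libraries overlap in this sum. The ratio of means, pifq over WT, was 3.13 ± 0.38 in cotyledons, 3.76 ± 0.93 in hooks and 3.29 ± 0.61 in hypocotyls (SD from 3 libraries each). The 35 genes took 8.08% ± 0.61 of all FPKM in pifq cotyledons and 2.65% ± 0.15 in WT cotyledons. They took 4.17% ± 0.58 in pifq hooks and 1.13% ± 0.23 in WT hooks, and 1.53% ± 0.25 in pifq hypocotyls and 0.456% ± 0.040 in WT hypocotyls (SD, n = 3 each). In bulk tissue, fewer cells that express a gene and less RNA per cell cannot be told apart.

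Of the 35 genes, 33 were called higher in pifq cotyledons and 1 lower, where 24.4% of all genes tested were called higher and 35.4% lower. In pifq hooks 34 were called higher and 0 lower, beside 36.6% and 24.0% of all genes. In pifq hypocotyls 34 were called higher and 1 lower, beside 35.9% and 16.5% of all genes. The counts by complex below stand beside these same shares, and those of the smaller complexes describe little. The median log2 change of the set was 1.75 in cotyledons, 2.11 in hooks and 1.88 in hypocotyls, beside -0.10, 0.12 and 0.17 for all genes tested. The exceptions were FD1, a ferredoxin, lower in cotyledons and hypocotyls and not called in hooks, and PSBS, not called in cotyledons. For the other 33 genes, and for PSBS as well, all 3 pifq libraries lay above all 3 WT libraries in each organ. The share of all genes tested that separate in this way was not counted.

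**Figure D1:**
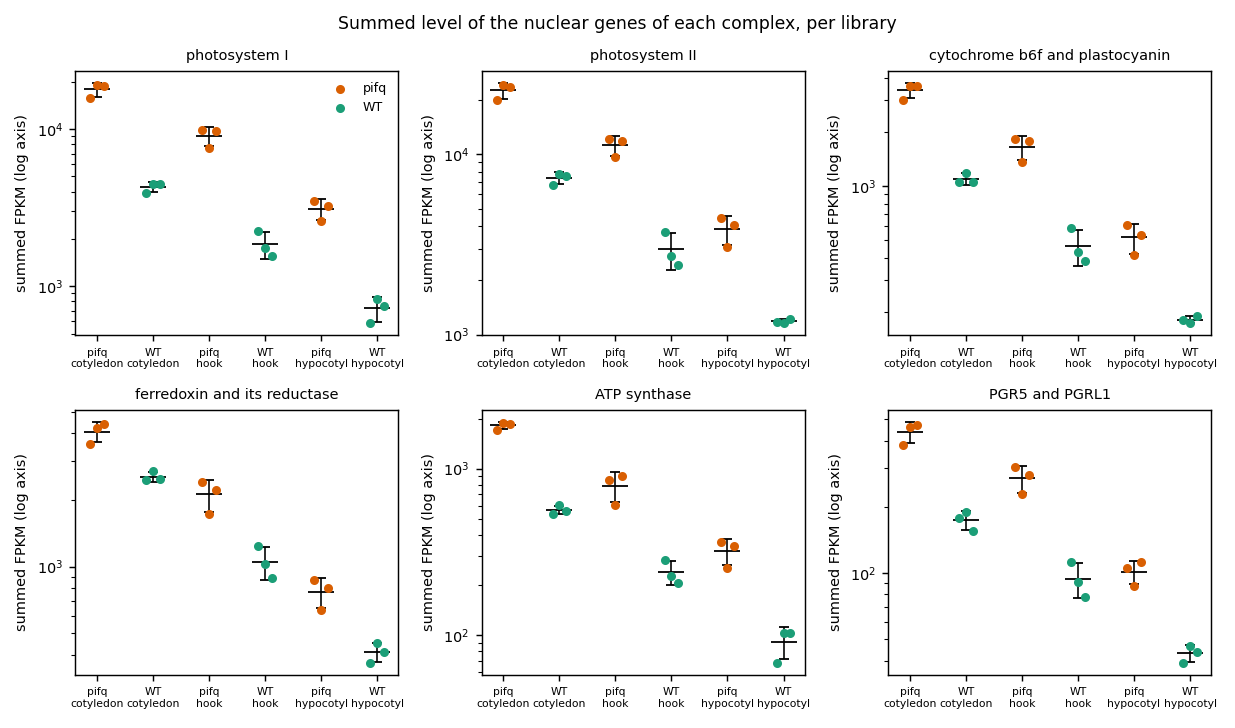
Summed FPKM of the nuclear genes of each complex (y axis, log scale) in each of the 18 libraries (points), for pifq and WT in cotyledon, hook and hypocotyl, with the mean (bar) and SD of 3 libraries. For every complex the pifq libraries sit above the WT libraries of the same organ, and the gap is narrowest for ferredoxin and its reductase, where the cotyledon sums ran from 3588 to 4393 FPKM in pifq and from 2452 to 2694 FPKM in WT.

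Photosystem I showed the widest gap between the genotypes. Its 12 genes summed to 17930 ± 1844 FPKM in pifq cotyledons and 4295 ± 309 FPKM in WT cotyledons, a ratio of 4.18 ± 0.52. In hooks the sums were 9046 ± 1270 FPKM in pifq and 1856 ± 358 FPKM in WT, a ratio of 4.87 ± 1.16. In hypocotyls they were 3117 ± 474 FPKM in pifq and 723 ± 129 FPKM in WT, a ratio of 4.31 ± 1.01 (SD, n = 3 each). All 12 were called higher in pifq in each organ, with log2 changes of 0.95 to 3.22 in cotyledons, 1.63 to 3.22 in hooks and 1.38 to 2.87 in hypocotyls.

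PSAN (AT5G64040, chromosome 5, TAIR10.1), a lumenal subunit on the plastocyanin side, had the largest log2 change of the complex in each organ. It read 1321, 1737 and 1696 FPKM in pifq cotyledons, against 166, 187 and 153 FPKM in WT cotyledons. The hooks read 847, 640 and 905 FPKM in pifq, against 106, 73.7 and 74.9 FPKM in WT. Hypocotyls read 273, 187 and 274 FPKM in pifq, against 28.8, 31.8 and 35.7 FPKM in WT. The lowest pifq library stood several times above the highest WT library in each organ. The log2 change was 3.22 ± 0.18 (SE) in cotyledons, with an adjusted p of 7.21e-10, and the means were 9.40 times higher in pifq cotyledons, 9.39 times in pifq hooks and 7.62 times in pifq hypocotyls. By the ratio of means PSAE1, a low gene, stood above it in hooks, at 9.68 times.

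PSAF, which helps to dock plastocyanin, averaged 2562 ± 157 FPKM in pifq cotyledons and 590 ± 17 FPKM in WT cotyledons, and was 4.34, 4.74 and 4.51 times higher in pifq in cotyledon, hook and hypocotyl. PSAK and PSAO, small membrane subunits at the edge of the complex, were 6.61 and 6.09 times higher in pifq cotyledons, and 4.94 and 4.67 times higher in pifq hypocotyls. PSAL, a membrane subunit on the side where PSAH and PSAO sit, was 2.94 times higher in pifq cotyledons, 4.34 times in pifq hooks and 4.17 times in pifq hypocotyls. PSAF and PSAL were among the highest of the complex in each group, with PSAL at 2539 ± 258 FPKM in pifq cotyledons and 864 ± 120 FPKM in WT cotyledons.

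PSAD and PSAE are stromal subunits at the ferredoxin docking site, each encoded by a pair of genes. PSAD1 read 2089, 2192 and 2079 FPKM in pifq cotyledons, against 710, 783 and 824 FPKM in WT cotyledons. PSAD2 read 940, 979 and 979 FPKM in pifq cotyledons, against 270, 292 and 310 FPKM in WT cotyledons. PSAD1 made up 68.7% ± 0.6 of the pair in pifq cotyledons and 72.7% ± 0.2 in WT cotyledons (SD, n = 3 each), so that the copies rose by similar factors. In hypocotyls PSAD2 had the smallest rise of the complex, reading 140, 81.1 and 129 FPKM in pifq, against 27.1, 58.1 and 51.0 FPKM in WT, with no overlap and a log2 change of 1.38 ± 0.24 (SE).

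PSAE1 and PSAG were far below the rest of photosystem I. PSAE1 averaged 193 ± 60 FPKM in pifq cotyledons and 28.8 ± 3.5 FPKM in WT cotyledons. PSAG, a membrane subunit on the side of the light-harvesting antenna, read 48.5, 83.0 and 76.9 FPKM in pifq cotyledons, against 16.9, 23.5 and 26.4 FPKM in WT cotyledons. The other 10 genes all averaged at least 169 FPKM in WT cotyledons. Annotated genes overlap 61.4% of the exon bases of PSAG, 53.3% of PSAH1, 34.1% of PSAE1 and 24.8% of PSAH2, from the opposite strand. The library kit does not mark strand and the treatment of shared reads is not given, so the levels of these 4 genes are uncertain, and the part of the overlap in them was not tested.

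PSAH, needed for docking the mobile light-harvesting antenna, is also encoded by a pair, and here the copies differed. PSAH1 read 452, 498 and 468 FPKM in pifq cotyledons, against 221, 244 and 272 FPKM in WT cotyledons. PSAH2 read 1390, 1681 and 1622 FPKM in pifq cotyledons, against 228, 264 and 226 FPKM in WT cotyledons. PSAH2 was well above PSAH1 in pifq cotyledons, and the copies stood at like levels in WT cotyledons. The log2 change in cotyledons was 0.95 ± 0.18 for PSAH1, the smallest of the complex there, and 2.70 ± 0.21 for PSAH2 (SE), with adjusted p-values of 0.000223 and 2.61e-08. In hooks PSAH1 was again the smallest, reading 225, 184 and 251 FPKM in pifq, against 94.9, 64.1 and 55.4 FPKM in WT.

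**Figure D2:**
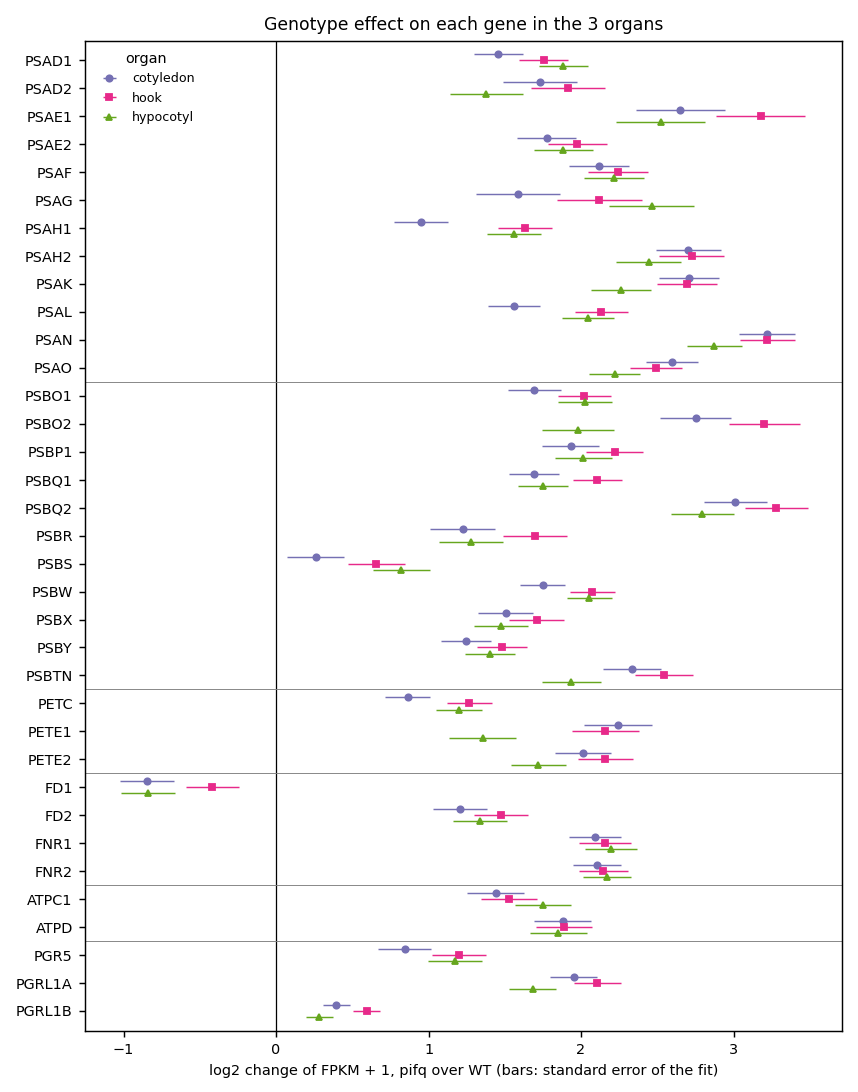
Log2 change of FPKM + 1, pifq over WT (x axis), of each of the 35 genes (y axis, grouped by complex with grey lines between) in cotyledon (circles), hook (squares) and hypocotyl (triangles), with bars for the standard error of the fit. FD1 lies left of 0 in each organ, PSBS and PGRL1B lie nearest to 0 on the right, and PSAN, PSAE1, PSBQ2 and PSBO2 reach about 3 in at least 1 organ.

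Photosystem II held the most transcript of any complex in each group. Its 11 genes summed to 22650 ± 2288 FPKM in pifq cotyledons and 7377 ± 566 FPKM in WT cotyledons, a ratio of 3.07 ± 0.39. The sums were 11230 ± 1414 FPKM in pifq hooks and 2969 ± 676 FPKM in WT hooks, and 3858 ± 703 FPKM in pifq hypocotyls and 1189 ± 33 FPKM in WT hypocotyls, with ratios of 3.78 ± 0.98 and 3.25 ± 0.60 (SD, n = 3 each). In cotyledons 10 of the 11 genes were called higher, and in hooks and hypocotyls all 11 were.

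The oxygen-evolving side of photosystem II is covered by the PSBO, PSBP and PSBQ proteins, which shield and stabilise the manganese cluster. PSBQ2 (AT4G05180, chromosome 4) had the largest rise of the complex in each organ. It read 1211, 1421 and 1377 FPKM in pifq cotyledons, against 141, 191 and 165 FPKM in WT cotyledons. The hooks read 603, 453 and 649 FPKM in pifq, against 80.0, 53.3 and 43.1 FPKM in WT, and the hypocotyls 201, 127 and 186 FPKM in pifq, against 25.3, 21.8 and 23.2 FPKM in WT. All pifq libraries were several times above all WT libraries of their organ. The log2 change was 3.01, 3.28 and 2.80 (SE 0.21 each), with adjusted p-values of 5.77e-09, 2.45e-09 and 3.26e-08. Its copy PSBQ1 read 1540, 1796 and 1662 FPKM in pifq cotyledons, against 487, 538 and 519 FPKM in WT cotyledons, with a log2 change of 1.69 ± 0.16 (SE).

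PSBO1 was the more abundant PSBO gene in every group. It read 2722, 3150 and 3078 FPKM in pifq cotyledons, against 853, 971 and 939 FPKM in WT cotyledons. PSBO2 read 1014, 1210 and 1128 FPKM in pifq cotyledons, against 152, 182 and 161 FPKM in WT cotyledons. PSBO2 was 6.77 times higher in pifq cotyledons, 9.11 times in pifq hooks and 4.16 times in pifq hypocotyls, and PSBO1 was 3.24, 3.97 and 4.12 times higher. PSBP1, the main PSBP gene, averaged 2280 ± 276 FPKM in pifq cotyledons and 595 ± 38 FPKM in WT cotyledons, with log2 changes of 1.93, 2.22 and 2.01 in cotyledon, hook and hypocotyl (SE 0.19 each).

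Among the small subunits, PSBR, which helps PSBP to bind, had the highest level of all 35 genes in every group but the pifq hypocotyls, where PSBO1 did. It averaged 4112 ± 488 FPKM in pifq cotyledons and 1762 ± 218 FPKM in WT cotyledons, and its log2 change of 1.22 ± 0.21 (SE) there was below the median of the complex, 1.69. PSBX, a small membrane subunit, averaged 3407 ± 459 FPKM in pifq cotyledons and 1195 ± 107 FPKM in WT cotyledons. PSBW, which helps to hold photosystem II and its antenna together, had log2 changes of 1.75, 2.07 and 2.05 in cotyledon, hook and hypocotyl, and PSBY, another small membrane subunit, 1.25, 1.48 and 1.40. PSBTN, a small lumenal protein, had larger ones of 2.33, 2.54 and 1.94, all called.

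PSBS (AT1G44575, chromosome 1), the protein that triggers the release of excess light energy as heat when the lumen acidifies, differed least. It read 651, 709 and 728 FPKM in pifq cotyledons, against 568, 604 and 569 FPKM in WT cotyledons. The hooks read 469, 319 and 464 FPKM in pifq, against 307, 233 and 246 FPKM in WT, and the hypocotyls 157, 116 and 171 FPKM in pifq, against 64.5, 107 and 81.4 FPKM in WT. The libraries did not overlap in any organ, but the gap was small, and in cotyledons the log2 change of 0.26 ± 0.19 (SE) was not called, with an adjusted p of 0.249. In hooks it was 0.66 and in hypocotyls 0.82, both called, with adjusted p-values of 0.00631 and 0.00166. The cotyledon difference was called under median-ratio scaling (0.48, adjusted p = 0.0424) and when the 6 cotyledon libraries were fitted alone (0.26, adjusted p = 0.0216). Over all the alternatives the adjusted p ran from 0.0216 to 0.441.

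**Figure D3:**
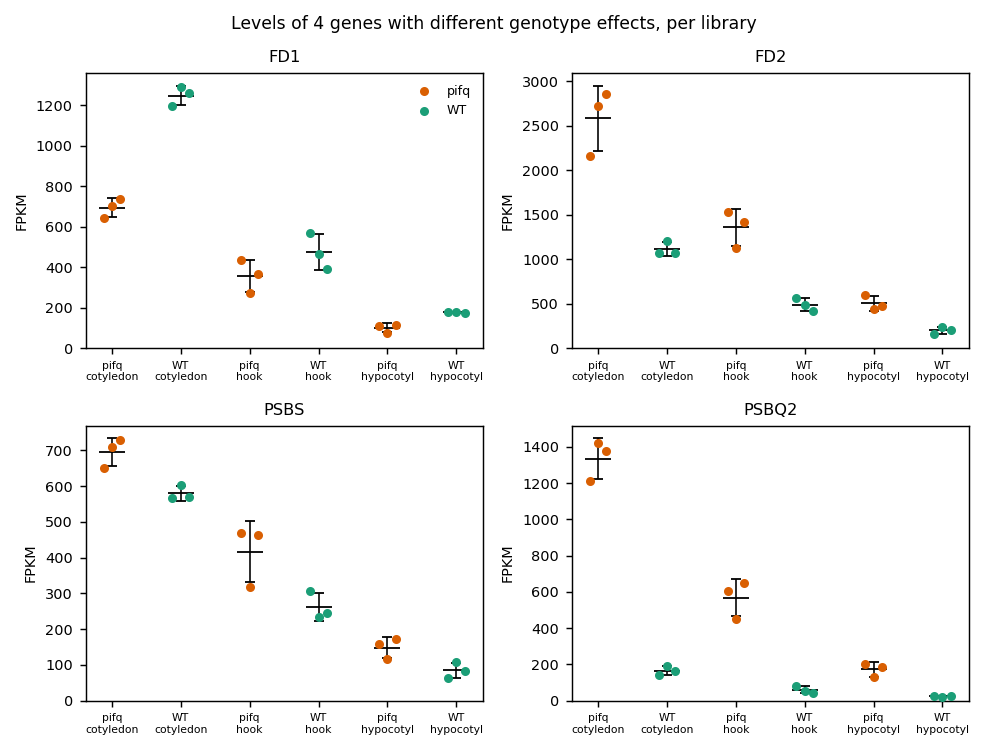
FPKM (y axis, starting at 0) of FD1, FD2, PSBS and PSBQ2 in each of the 18 libraries (points), for pifq and WT in cotyledon, hook and hypocotyl, with the mean (bar) and SD of 3 libraries. In cotyledons FD1 is lower in pifq (642 to 735 FPKM) than in WT (1194 to 1291 FPKM), FD2 and PSBQ2 are higher, and PSBS is nearly level.

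The carriers between the photosystems were higher in pifq throughout. PETC, the Rieske iron-sulfur protein of the cytochrome b6f complex, and the plastocyanin genes PETE1 and PETE2 summed to 3419 ± 341 FPKM in pifq cotyledons and 1100 ± 79 FPKM in WT cotyledons. In hooks they summed to 1656 ± 256 FPKM in pifq and 467 ± 107 FPKM in WT, and in hypocotyls to 520 ± 99 FPKM in pifq and 181 ± 8 FPKM in WT (SD, n = 3 each). The ratios were 3.11 ± 0.38, 3.55 ± 0.98 and 2.87 ± 0.56, and all 3 genes were called higher in each organ.

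PETC (AT4G03280, chromosome 4) had the smallest rise of the 3. It read 786, 936 and 953 FPKM in pifq cotyledons, against 476, 526 and 465 FPKM in WT cotyledons. The log2 change was 0.86 ± 0.15 (SE) in cotyledons, with an adjusted p of 0.000116, and 1.27 in hooks and 1.20 in hypocotyls. Plastocyanin carries electrons from the b6f complex to photosystem I, and PETE2 was its main gene in each group. PETE2 read 1897, 2311 and 2310 FPKM in pifq cotyledons, against 501, 589 and 520 FPKM in WT cotyledons. PETE1 read 343, 363 and 360 FPKM in pifq cotyledons, against 73.9, 75.8 and 73.2 FPKM in WT cotyledons. All pifq libraries lay above all WT libraries for each gene, and PETE1 made up 14.1% ± 1.0 of the pair in pifq cotyledons and 12.2% ± 0.7 in WT cotyledons (SD, n = 3 each). In hypocotyls the log2 changes were 1.35 ± 0.22 for PETE1 and 1.72 ± 0.18 for PETE2 (SE).

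Ferredoxin was the point where the genotypes parted by gene. FD2 and FD1 encode the leaf-type ferredoxins, of which FD2 is known as the main one in green leaves. FD1 (AT1G10960, chromosome 1) read 642, 704 and 735 FPKM in pifq cotyledons, against 1194, 1291 and 1258 FPKM in WT cotyledons. The hypocotyls read 109, 74.9 and 116 FPKM in pifq, against 180, 178 and 172 FPKM in WT. In hooks it read 433, 275 and 364 FPKM in pifq, against 571, 464 and 391 FPKM in WT. FD1 was lower in all pifq cotyledon and hypocotyl libraries, while in hooks the highest pifq library lay above the lowest WT library. The log2 change was -0.85 ± 0.18 in cotyledons and -0.84 ± 0.18 in hypocotyls (SE), with adjusted p-values of 0.000602 and 0.000897. In hooks it was -0.42 ± 0.18 and not called, with an adjusted p of 0.0518.

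The hook value of FD1 lay at the threshold. It was called lower at -0.55 without WT hook replicate 3 (adjusted p = 0.0229) and at -0.57 without pifq hook replicate 1 (adjusted p = 0.0171). It was also called without pifq hypocotyl replicate 2 (adjusted p = 0.0276) or replicate 3 (adjusted p = 0.0447). Leaving either out kept the log2 change at -0.42, but can alter the shared estimate of spread and which genes are tested. Under all the alternatives tried the log2 change stayed below 0, between -0.59 and -0.24, with adjusted p-values from 0.0113 to 0.256.

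FD2 (AT1G60950, chromosome 1) read 2164, 2722 and 2860 FPKM in pifq cotyledons, against 1068, 1208 and 1067 FPKM in WT cotyledons. The hooks read 1529, 1127 and 1415 FPKM in pifq, against 564, 483 and 417 FPKM in WT, and the hypocotyls 597, 436 and 479 FPKM in pifq, against 158, 237 and 204 FPKM in WT. FD2 was thus higher in each pifq library than in any WT library of its organ, with log2 changes of 1.20, 1.47 and 1.34 (SE 0.18 each) and adjusted p-values of 2.27e-05, 3.06e-06 and 1.35e-05. FD1 and FD2 stood far apart in pifq cotyledons, 694 ± 48 and 2582 ± 368 FPKM, and at nearly the same level in WT cotyledons, 1248 ± 49 and 1114 ± 81 FPKM (SD, n = 3 each).

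The coding sequences of these ferredoxins are 80.5% identical, with 91 differences in 447 bases and a longest identical run of 23 bases.

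The FNR genes, which encode the reductase that passes electrons to NADP+, rose together. FNR1 read 477, 485 and 484 FPKM in pifq cotyledons, against 115, 120 and 103 FPKM in WT cotyledons. FNR2 read 305, 330 and 314 FPKM in pifq cotyledons, against 74.9, 75.2 and 68.3 FPKM in WT cotyledons. Neither overlapped between genotypes in any organ. The log2 changes were 2.09, 2.16 and 2.20 for FNR1 and 2.10, 2.15 and 2.17 for FNR2, with a range over the organs of 0.10 and 0.07. The sum of the 4 genes of this step was 4074 ± 427 FPKM in pifq cotyledons and 2547 ± 129 FPKM in WT cotyledons (SD, n = 3 each). With FD1 lower in pifq, the ratio of these sums was 1.60 ± 0.19 in cotyledons, 2.01 ± 0.48 in hooks and 1.88 ± 0.35 in hypocotyls, the lowest of the 6 complexes in each organ.

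The nuclear ATP synthase genes in the set encode the gamma subunit (ATPC1), which turns in the catalytic head, and the delta subunit (ATPD), which ties the head to the stator. ATPC1 read 722, 782 and 769 FPKM in pifq cotyledons, against 273, 288 and 275 FPKM in WT cotyledons. ATPD read 991, 1097 and 1090 FPKM in pifq cotyledons, against 263, 315 and 285 FPKM in WT cotyledons. Each was higher in all pifq libraries in each organ. ATPD had the most even genotype effect of the 35 genes, with log2 changes of 1.88, 1.89 and 1.85 and a range over the organs of 0.04, and ATPC1 had 1.44, 1.53 and 1.75. The ratio of their sums was 3.21 ± 0.25, 3.32 ± 0.86 and 3.51 ± 1.0 in cotyledon, hook and hypocotyl (SD from 3 libraries each).

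PGR5 and its partner PGRL1 serve the cyclic electron flow that returns electrons from ferredoxin to plastoquinone. PGR5 read 145, 189 and 199 FPKM in pifq cotyledons, against 101, 110 and 83.8 FPKM in WT cotyledons. Its log2 changes were 0.84, 1.20 and 1.17 (SE 0.18 each), all called. PGRL1A read 217, 250 and 254 FPKM in pifq cotyledons, against 64.5, 62.6 and 56.8 FPKM in WT cotyledons, with log2 changes of 1.95, 2.11 and 1.68 (SE 0.15 each). PGRL1A followed the bulk of the set, and PGR5 rose less.

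PGRL1B (AT4G11960, chromosome 4) was low and nearly flat. It read 20.6, 20.9 and 18.4 FPKM in pifq cotyledons, against 13.3, 16.2 and 15.4 FPKM in WT cotyledons. The hooks read 19.4, 18.2 and 17.9 FPKM in pifq, against 11.6, 12.4 and 11.7 FPKM in WT, and the hypocotyls 14.8, 13.8 and 15.9 FPKM in pifq, against 11.84, 11.16 and 13.01 FPKM in WT. The groups did not overlap, and the gap was narrow. The log2 changes were 0.39, 0.59 and 0.28 (SE 0.09 each), with adjusted p-values of 0.00122, 3.06e-05 and 0.0145. In hypocotyls the call was lost without pifq hypocotyl replicate 3 (0.24, adjusted p = 0.0636), without WT hypocotyl replicate 2 (0.24, adjusted p = 0.0569), with the 6 hypocotyl libraries fitted alone (adjusted p = 0.0734) and under median-ratio scaling (0.06, adjusted p = 0.645).

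Pairs of gene copies give a readout that does not depend on how a library is scaled, the share of the first copy in the summed FPKM of the pair. Over 9 pairs, pifq was set against WT by an exact two-sided permutation test of genotype within organ, with 8000 arrangements, a smallest possible p of 0.00025 and adjustment over the 9 pairs. The test treats the organs as independent. Whether same-numbered libraries of different organs came from the same seedlings was not examined. If they did, 3 units stand against 3, and an exact test cannot go below p = 0.1. The share of FD1 was 21.3% ± 1.4 in pifq cotyledons and 52.9% ± 1.2 in WT cotyledons. It was 20.7% ± 1.3 in pifq hooks and 49.2% ± 1.0 in WT hooks, and 16.6% ± 2.6 in pifq hypocotyls and 47.3% ± 5.4 in WT hypocotyls (SD, n = 3 each). No pifq library reached the lowest WT library of its organ. Averaged over the organs, pifq minus WT was -30.27 percentage points (exact permutation p = 0.00025, adjusted p = 0.00045), the widest of the 9 pairs.

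The pairs of PSAH, PSBQ, PGRL1 and PSAE reached the same smallest p, with an adjusted p of 0.00045 in the exact permutation test. PSAH1 took 23.3% ± 1.1 of its pair in pifq cotyledons and 50.6% ± 3.5 in WT cotyledons, and differed by -19.42 points over the organs. PSBQ1 took 55.5% ± 0.7 in pifq cotyledons and 75.7% ± 1.9 in WT cotyledons, and differed by -17.50 points. PGRL1A took 75.3% ± 1.2 in pifq hypocotyls and 52.7% ± 5.2 in WT hypocotyls, and differed by 16.97 points. PSAE1 took 14.4% ± 2.9 in pifq cotyledons and 8.1% ± 0.5 in WT cotyledons, and differed by 6.56 points. In each of these 5 pairs the shares of pifq and WT libraries did not overlap in any organ.

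PSBO1 differed by -7.85 points in the exact permutation test over the organs (p = 0.003, adjusted p = 0.0045). It took 72.8% ± 0.5 in pifq cotyledons and 84.8% ± 0.6 in WT cotyledons, and 76.6% ± 1.8 in pifq hooks and 88.3% ± 1.5 in WT hooks. In hypocotyls it took 86.9% ± 1.5 in pifq and 86.7% ± 2.3 in WT (SD, n = 3 each), a difference of 0.14 points. The other 3 pairs differed by less than a point on average over the organs, an average in which opposite shifts cancel. PSAD1 differed by -0.08 points, made up of -3.96 in cotyledons, -2.27 in hooks and 6.01 in hypocotyls. Its shares did not overlap between the genotypes in any organ. PETE1 differed by 0.00 points, made up of 1.92, 0.18 and -2.11 in the same order, and FNR1 by -0.26 points. The exact permutation p-values of PSAD1, PETE1 and FNR1 were 0.955, 0.998 and 0.744, and this test cannot detect shifts that cancel. The coding sequences of the 9 pairs are 75.0% to 88.0% identical, with longest identical runs of 17 to 38 bases. How reads shared between copies were counted is not given in the sources used here, and PSAH and PSAE also hold the overlapped genes named above.

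**Figure D4:**
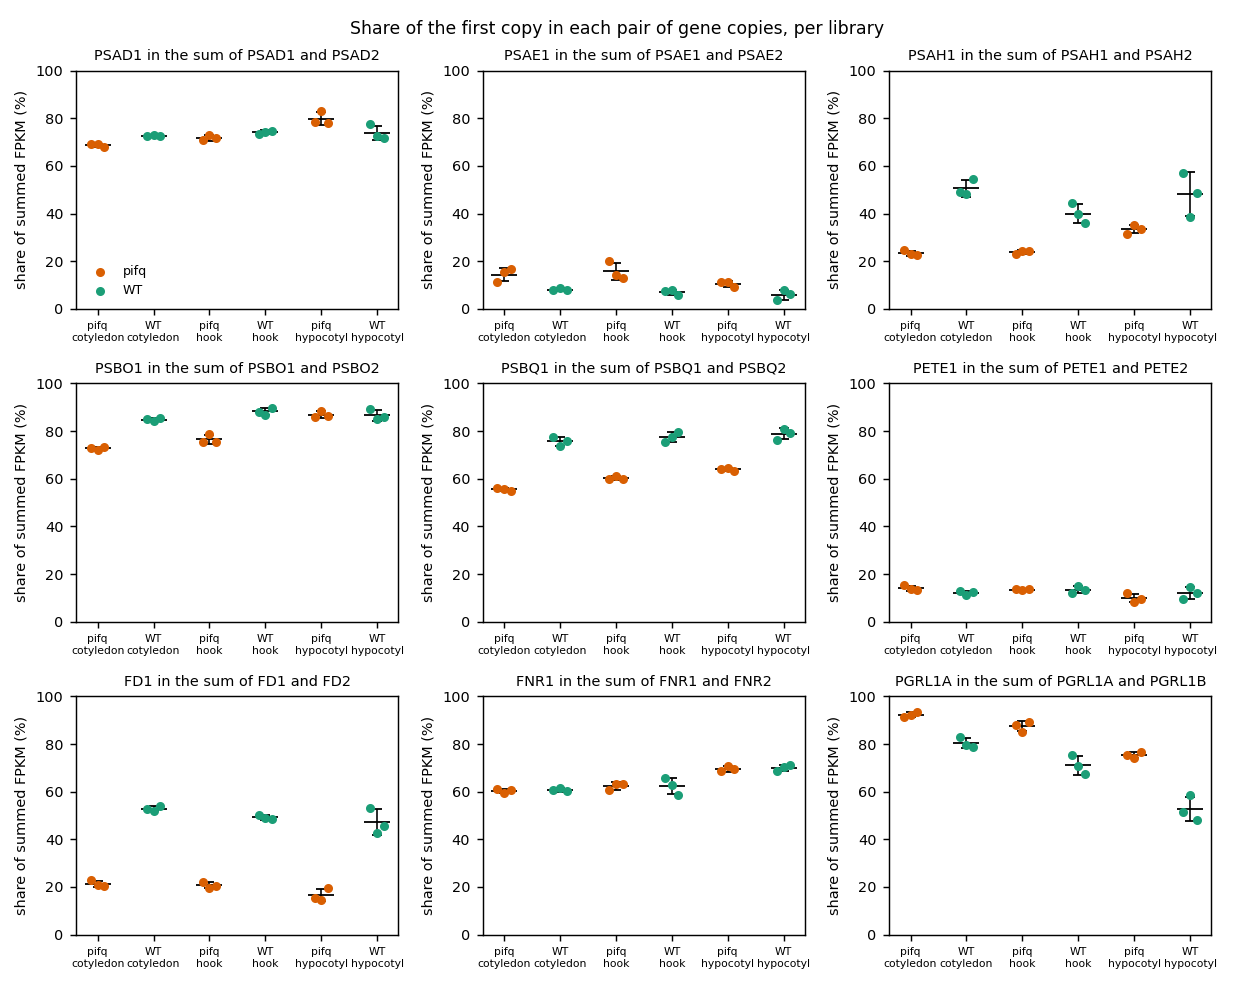
Share of the first copy in the summed FPKM of each of 9 pairs of gene copies (y axis, 0 to 100%) in each of the 18 libraries (points), for pifq and WT in cotyledon, hook and hypocotyl, with the mean (bar) and SD of 3 libraries. The points of FD1, PSAH1 and PSBQ1 lie lower in pifq than in WT, those of PGRL1A higher, and those of FNR1 and PETE1 at about the same height, with means for FD1 of 21.3% in pifq cotyledons and 52.9% in WT cotyledons.

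Between organs, the set followed a steep order. In pifq 33 of the 35 genes were called lower in hook than in cotyledon, where 11.4% of all genes were called lower, and in WT all 35 were, beside 23.9% of all genes. Against cotyledon, hypocotyl was lower for all 35 genes in pifq, beside 22.4% of all genes, and for all 35 in WT, beside 37.7%. Against hook, hypocotyl was lower for all 35 genes in pifq, beside 37.6% of all genes, and for 34 in WT, beside 41.9%. The median log2 changes of the set were -0.98 in pifq and -1.22 in WT for hook against cotyledon, -2.51 in pifq and -2.64 in WT for hypocotyl against cotyledon, and -1.52 in pifq and -1.35 in WT for hypocotyl against hook.

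PGRL1B was the outlier among the organs as well. It differed by -0.10 between pifq hook and pifq cotyledon and was not called (adjusted p = 0.333), nor was it between WT hypocotyl and WT hook, at 0.01 ± 0.09 (SE, adjusted p = 0.944). PSAG was not called between pifq hook and pifq cotyledon either, at -0.65 (adjusted p = 0.0508). The steepest fall was that of PSBO2 between pifq hypocotyl and pifq cotyledon, at -3.42, where it averaged 106 ± 29 FPKM in pifq hypocotyls and 1117 ± 99 FPKM in pifq cotyledons. PSAO fell least among the photosystem I genes between WT hook and WT cotyledon, at -0.88, and PSAH1 most, at -1.80.

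Ordered by group mean, 24 of the 35 genes ran pifq cotyledon, pifq hook, WT cotyledon, pifq hypocotyl, WT hook, WT hypocotyl, high to low. In 32 genes the pifq hook mean exceeded the WT cotyledon mean, with a median ratio of 1.73, and in 30 the pifq hypocotyl mean exceeded the WT hook mean, with a median ratio of 1.45. The matching shares of all genes were not counted. The sums over the set show which neighbours separate. The pifq hooks, at 21120 to 27420 FPKM, lay above the WT cotyledons, at 14900 to 16990 FPKM, and these above the pifq hypocotyls, at 7054 to 9893 FPKM. The pifq hypocotyls and WT hooks, at 5544 to 8203 FPKM, overlapped. FD1 was the only gene of the 35 whose WT cotyledon mean stood first.

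**Figure D5:**
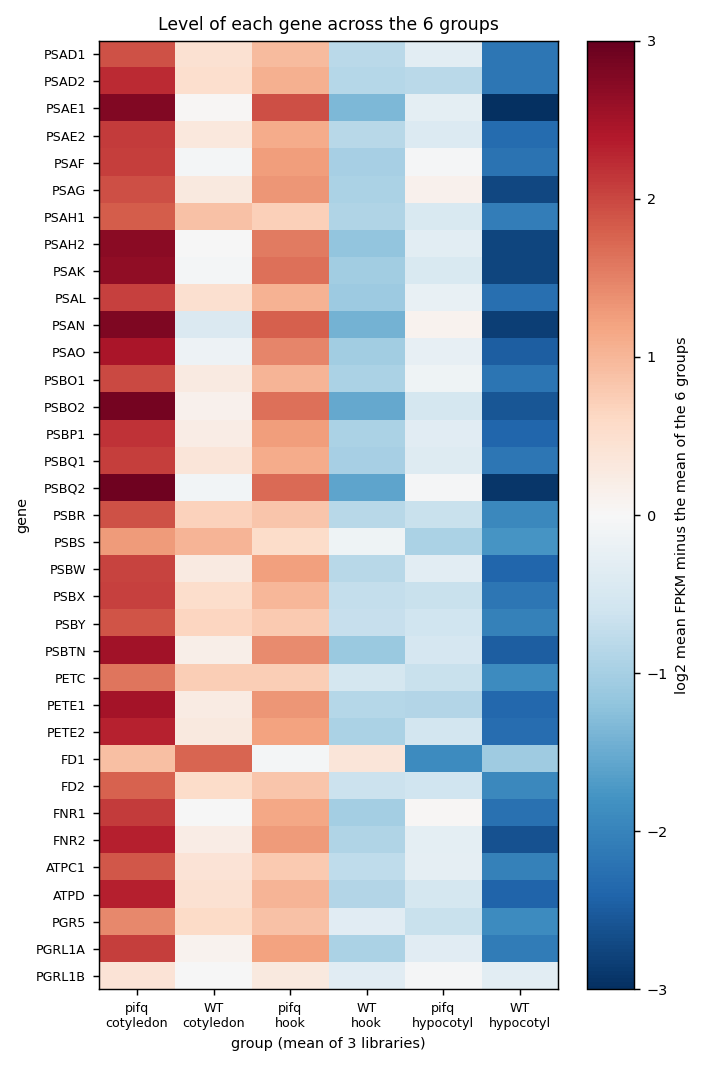
Level of each of the 35 genes (rows, grouped by complex) in the 6 groups (columns), as the log2 mean FPKM of 3 libraries minus the mean of the 6 groups, red for higher and blue for lower. The colours fade from cotyledon to hypocotyl within each genotype in nearly every row, while FD1 is redder in WT than in pifq and PGRL1B stays pale.

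Across the 35 genes, the genotype effect of one organ resembled that of another, with a Pearson r of 0.97 between cotyledon and hook, 0.89 between cotyledon and hypocotyl and 0.91 between hook and hypocotyl. These describe 35 genes, which are not independent replicates. The organs share no library. The range of a gene's effect over the organs had a median of 0.41 and reached 1.22 for PSBO2.

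Tests of the difference of the genotype effect between organs called 1 gene of the 35 in each comparison. For hook minus cotyledon, with 41.4% of all genes called in either direction, it was PSAH1, at 0.69 ± 0.25 (SE, adjusted p = 0.0375). For hypocotyl minus cotyledon, with 45.7% of all genes called, it was PETE1, at -0.89 ± 0.31 (SE, adjusted p = 0.0296). For hypocotyl minus hook, with 29.1% of all genes called, it was PSBO2, at -1.22 ± 0.33 (SE, adjusted p = 0.012). PSBO2 read 128, 72.7 and 117 FPKM in pifq hypocotyls and 21.5, 28.2 and 26.8 FPKM in WT hypocotyls. It read 515, 369 and 545 FPKM in pifq hooks and 71.7, 50.3 and 34.8 FPKM in WT hooks. The median of these differences over all genes depends on the scaling. It was 0.25 for hook minus cotyledon and 0.28 for hypocotyl minus cotyledon, and -0.07 and -0.10 under median-ratio scaling. With that scaling PSAH1 was at 0.29 (adjusted p = 0.412), and 9 of the 35 genes were called lower for hypocotyl minus cotyledon. The share of all genes called lower with that scaling was not counted, so this count describes little about the set.

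Libraries of a group moved together over the set. Replicate 2 of the pifq hooks was the lowest of its group in 33 of the 35 genes, replicate 2 of the pifq hypocotyls in 34, and replicate 1 of the WT hooks was the highest of its group in 33. How many of all genes did so was not counted. Under median-ratio scaling, pifq hook replicates 1, 2 and 3 were divided by 1.200, 1.236 and 1.163. For the pifq hypocotyls these factors were 1.086, 1.086 and 1.051, and for the WT hooks 1.086, 1.055 and 1.045, in the same order. A shift of the whole library was not tested. The ratio of the summed set, pifq over WT, in hooks was 4.06 without pifq hook replicate 2 and 4.25 without WT hook replicate 1, beside 3.76 with all libraries. In hypocotyls it was 3.60 without pifq hypocotyl replicate 2, beside 3.29. Epidermis markers summed to 427 to 596 FPKM in pifq cotyledons and 476 to 619 FPKM in WT cotyledons, with 0 of 3 called. They summed to 1132 to 1432 FPKM in pifq hooks and 1043 to 1178 FPKM in WT hooks, and to 484 to 606 FPKM in pifq hypocotyls and 260 to 522 FPKM in WT hypocotyls, with 2 of 3 called higher in each. Of 3 guard cell markers, 3, 1 and 2 were called higher in pifq in cotyledon, hook and hypocotyl, with sums of 35.5 to 39.2 FPKM in pifq cotyledons and 17.4 to 22.7 FPKM in WT cotyledons. Xylem markers summed to 105 to 133 FPKM in pifq hooks and 61.9 to 71.5 FPKM in WT hooks, with 4 of 5 called higher there. In cotyledons 1 of the 5 was called higher and 1 lower, and in hypocotyls 0 were called. Of 4 shoot meristem and boundary markers tested, 2 were called lower in pifq cotyledons, 2 higher in pifq hooks and 3 higher in pifq hypocotyls. PORA and PORB, the protochlorophyllide reductases of etioplasts, were called lower in pifq in each organ. Of all genes tested, 24.4%, 36.6% and 35.9% were called higher in pifq in cotyledon, hook and hypocotyl. In the same order 35.4%, 24.0% and 16.5% were called lower. Beside these shares, counts from such short marker lists describe little. The part of these cells in the differences of the set was not tested.

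Upstream of the genes, the 300 bases before the outermost annotated start in RefSeq's TAIR10.1 annotation were searched on both strands for 4 short motifs. The G-box CACGTG, the core sequence known to be bound by PIF proteins, was in 7 of the 35 windows, beside 7.1% of the 27431 windows of all genes. The genes were PSAE2, PSAH2, PSBQ1, PSBQ2, PSBTN, PETC and ATPD. The PBE-box CACATG was in 5, beside 13.1%. The I-box GATAAG, a motif known from light-responsive promoters, was in 9, beside 14.5%, and CCAATC in 7, beside 12.2%. Genes with and without a G-box in the window had like genotype effects, with median log2 changes of 1.88 and 1.71 in cotyledons, 2.11 and 2.09 in hooks and 1.88 and 1.82 in hypocotyls. In 18 of the 35 genes the window overlaps annotated exons. A match describes these letters and no binding.

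Windows of 3 genes with different effects are shown, none of which overlaps an annotated exon. PSBQ2, with the largest rise of photosystem II, holds a G-box at 145 and at 77 bases upstream. PETC, with the smallest rise of its complex, holds a G-box at 281 bases upstream and each of the other motifs. FD2, whose copy FD1 fell, holds none of the 4. Capitals mark the motifs on either strand, and each window is written 5′ to 3′ on the strand of its gene.
PSBQ2, chr4:2673244-2673543, minus strand: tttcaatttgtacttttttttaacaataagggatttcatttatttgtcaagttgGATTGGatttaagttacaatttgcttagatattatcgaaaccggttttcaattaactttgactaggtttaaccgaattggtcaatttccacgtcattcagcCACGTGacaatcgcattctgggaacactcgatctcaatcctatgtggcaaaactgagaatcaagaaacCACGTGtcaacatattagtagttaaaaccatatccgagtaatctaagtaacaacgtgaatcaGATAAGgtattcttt
PETC, chr4:1439846-1440145, plus strand: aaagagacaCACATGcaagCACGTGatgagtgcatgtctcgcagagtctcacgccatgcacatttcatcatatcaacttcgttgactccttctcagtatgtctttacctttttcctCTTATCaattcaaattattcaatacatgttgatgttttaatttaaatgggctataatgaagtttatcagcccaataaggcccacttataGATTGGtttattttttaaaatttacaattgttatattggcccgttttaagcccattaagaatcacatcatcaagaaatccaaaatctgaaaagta
FD2, chr1:22444007-22444306, plus strand: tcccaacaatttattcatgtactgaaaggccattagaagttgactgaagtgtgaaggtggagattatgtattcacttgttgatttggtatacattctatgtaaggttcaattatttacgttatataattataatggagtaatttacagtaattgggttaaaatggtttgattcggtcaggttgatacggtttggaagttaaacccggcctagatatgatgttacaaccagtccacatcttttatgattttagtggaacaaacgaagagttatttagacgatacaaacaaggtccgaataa

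Other nuclear genes of the same pathway were mostly higher in pifq too, by less. Of 45 tested, from 49 listed, 32 were called higher and 4 lower in cotyledons, 38 and 0 in hooks, and 27 and 2 in hypocotyls, with median log2 changes of 0.88, 1.23 and 0.70. Of all genes tested, 24.4%, 36.6% and 35.9% were called higher in cotyledon, hook and hypocotyl, and 35.4%, 24.0% and 16.5% lower, and the lists below are set beside these shares. The NDH complex, which serves another route of cyclic flow, had 14, 15 and 9 of 16 genes called higher, in cotyledon, hook and hypocotyl, and the hypocotyl count stood nearest to the share of all genes, 35.9%. Its subunits PNSL3 and NDHU rose most in cotyledons, at 2.75 ± 0.25 and 2.48 ± 0.22 (SE), and in hooks, at 2.68 and 2.54. PNSL3 averaged 56.9 ± 5.4 FPKM in pifq cotyledons and 7.76 ± 2.02 FPKM in WT cotyledons. In hypocotyls PNSB1 and PNSB5 rose most, at 1.67 and 1.54, and NDHO fell, at -1.03 ± 0.32 (SE, adjusted p = 0.0141).

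Of 13 assembly, repair and thylakoid-shaping genes, 10 were called higher in cotyledons, 13 in hooks and 11 in hypocotyls, and none lower. The photosystem II repair factor PPL1 and the curvature protein CURT1B had the largest log2 changes in cotyledons, at 1.28 and 1.11, and in hooks, at 1.51 and 1.56. In hypocotyls PPL1 and the curvature protein CURT1A did, at 1.41 and 1.23. CURT1B averaged 793 ± 69 FPKM in pifq cotyledons and 366 ± 22 FPKM in WT cotyledons. Of 6 further genes listed with the b6f complex and the ATP synthase, not all of which encode subunits, 3, 4 and 3 were called higher. This stands beside 24.4%, 36.6% and 35.9% of all genes, and with 6 genes describes little. The small b6f subunit PETM was higher in each organ, at 0.74, 1.25 and 0.74, and ACDR1, an ABC1-like kinase, fell in cotyledons, at -0.79 ± 0.13 (SE). ATPC2, FDC1 and NDHL were not analysed here.

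Of 10 other ferredoxin and FNR genes, with the kinases and oxidases around them, 5 were called higher and 3 lower in cotyledons, 6 and 0 in hooks, and 4 and 1 in hypocotyls. The hypocotyl counts and the lower count in cotyledons were near the shares of all genes, 35.9% higher and 16.5% lower in hypocotyls and 35.4% lower in cotyledons, and describe nothing about this list. RFNR2, a root-type FNR that serves non-photosynthetic plastids, read 130, 125 and 101 FPKM in pifq cotyledons, against 8.44, 7.23 and 9.39 FPKM in WT cotyledons. Its log2 change of 3.67 ± 0.16 (SE, adjusted p = 4.19e-11) was larger than that of any of the 35 genes in that organ. The other root-type gene, RFNR1, read 45.5, 47.2 and 47.7 FPKM in pifq cotyledons, against 88.2, 89.6 and 83.7 FPKM in WT cotyledons, a log2 change of -0.88 ± 0.17 (SE, adjusted p = 0.000268). These copies thus went opposite ways in cotyledons, as FD1 and FD2 did.

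The kinase STN7, which drives state transitions, rose by 1.93 in cotyledons and 1.90 in hooks, and the FNR tethers TIC62 and TROL by 1.55 and 1.96 in hypocotyls, all on the log2 scale. TROL averaged 118 ± 24 FPKM in pifq hypocotyls and 29.6 ± 5.1 FPKM in WT hypocotyls. The plastid terminal oxidase PTOX fell in cotyledons, at -0.50 ± 0.09 (SE, adjusted p = 0.000153), and the root-type ferredoxin FD3 in hypocotyls, at -0.58 ± 0.20 (SE, adjusted p = 0.0234).

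The chloroplast-encoded partners of the same complexes ran the other way in cotyledons and hooks. All 19 analysed were called lower in pifq cotyledons and in pifq hooks, and 1, psbC, in pifq hypocotyls, with median log2 changes of -3.27, -2.83 and -0.58. They summed to 123 to 173 FPKM in pifq cotyledons and 1501 to 2308 FPKM in WT cotyledons, to 69.2 to 105 FPKM in pifq hooks and 770 to 1123 FPKM in WT hooks, and to 52.3 to 613 FPKM in pifq hypocotyls and 288 to 569 FPKM in WT hypocotyls. All mitochondrial transcripts moved with them, at 64.0 to 104 FPKM in pifq cotyledons and 3211 to 5952 FPKM in WT cotyledons. In hypocotyls the sums of the chloroplast-encoded partners overlapped between the genotypes, and 1 pifq library stood apart. All chloroplast transcripts summed to 316 FPKM in pifq hypocotyl replicate 3, beside 2867 FPKM in replicate 1 and 4307 FPKM in replicate 2. How organelle RNA entered each library is not given in the sources used here, and its part in these differences was not tested. With organelle-encoded genes removed and the libraries rescaled, 33 of the 35 nuclear genes were called higher in pifq cotyledons, 34 in pifq hooks and 34 in pifq hypocotyls, and 1 was called lower in each organ. The shares of all genes called in that fit were not counted.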

How the data were processed

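Libraries were made from Trizol-extracted, DNase-treated RNA with a NEBNext Ultra kit, per the labels' protocols, and this kit does not mark strand. The submitters' processing notes name HISAT2, DESeq2 and TAIR10 without roles or versions. The counting tool, annotation and filters are not given in the sources used here. The authors deposited 1 table per library, whose values are FPKM, a unit read from the values. Multiplied by merged exon length in TAIR10.1, 99.37% to 99.50% of values below 100 reads were whole (tolerance 0.05), which gave each library's depth, 12955815 to 20701103 reads or read pairs. That number limits the precision of low genes.

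From these values, the 19349 genes that reached 1 FPKM in 3 or more of the 18 libraries were fitted with limma 3.58.1 (R 4.3.3), with a trend, on log2(FPKM + 1), in 1 fit of 6 group means. The genotypes were contrasted within organs, the organs within genotypes, and the genotype effects between organs. P-values were adjusted with Benjamini-Hochberg over all genes, at a threshold of 0.05, and the fit was tested on simulated data. Labels number the replicates and do not otherwise state separate cultures, so p-values measure only the spread between these libraries, which may be technical. Complex sums carry no test, and their ratios have an SD propagated from the libraries of each genotype. Shares of gene copies were tested by exact permutation of genotype within organ.

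Any of the 35 genes could be named, and of each other list up to 2 called rises and 2 called falls per organ. The members, lists and markers were chosen with earlier results of these data known. Alternatives were a pseudocount of 0.1, no filter, 5 FPKM in 3 libraries, nuclear genes only, median-ratio scaling, a replicate block, only the libraries compared and each library left out. Loci, windows and sequences come from RefSeq's TAIR10.1 annotation, to which all 35 genes matched.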

Additional observations from a re-analysis of the deposited data

Results flagged for a closer look

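The difference of the genotype effect between organs was called for 3 of the 35 genes, 1 in each comparison of organs. For PSAH1 the log2 change, pifq over WT, was higher in hooks than in cotyledons, by 0.69 ± 0.25 (SE, limma adjusted p = 0.0375). The call was lost without WT cotyledon replicate 2 (adjusted p = 0.0625) or 3 (0.0841), WT hook replicate 2 (0.0825) or 3 (0.11), pifq cotyledon replicate 1 (0.071) or 3 (0.065), or pifq hook replicate 1 (0.0707) or 3 (0.0902). It was also lost with no filter (0.054) and with median-ratio scaling (0.412). For PETE1 hypocotyls minus cotyledons gave -0.89 ± 0.31 (SE, adjusted p = 0.0296). Its call was lost without WT cotyledon replicate 1 (adjusted p = 0.0514) or 3 (0.0516), WT hypocotyl replicate 2 (0.0666) or 3 (0.0673), pifq cotyledon replicate 2 (0.0546) or 3 (0.0534), or pifq hypocotyl replicate 2 (0.0773), where it was -0.61. For PSBO2 hypocotyls minus hooks gave -1.22 ± 0.33 (SE, adjusted p = 0.012), and was called under each alternative tried, with adjusted p-values from 0.00277 to 0.036. Of all genes tested, 41.4% were called for hook minus cotyledon, 45.7% for hypocotyl minus cotyledon and 29.1% for hypocotyl minus hook.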

How the results depend on the processing

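The genotype counts in cotyledon and hypocotyl and all organ counts stayed within 1.5 times their values under each alternative tried, and no value reported for the 35 genes with a call changed sign. In hooks, FD1 was the 1 gene called lower under the stricter filter, nuclear genes only, median-ratio scaling and the replicate block. For hook minus cotyledon effects, 0 genes were called higher with no filter or with median-ratio scaling. For hypocotyl minus cotyledon, 1 was called higher with a pseudocount of 0.1, 2 with nuclear genes only and 2 with only the libraries compared. In that comparison 9 were called lower with median-ratio scaling and 2 with only the libraries compared. For hypocotyl minus hook, 2 were called lower with median-ratio scaling. The shares of all genes called under these alternatives were not counted. Median-ratio scaling moved the ratios of sums in cotyledons to 4.86 for photosystem I, 3.57 for photosystem II, 3.62 for b6f and plastocyanin, 1.86 for ferredoxin and FNR, 3.73 for the ATP synthase, 2.92 for PGR5 and PGRL1 and 3.65 for all, and that of PGR5 and PGRL1 in hypocotyls to 1.99. Under that scaling the median log2 change of all genes, pifq over WT, was 0.04 in cotyledons and -0.03 in hypocotyls. In the main fit it was -0.10 and 0.17. Leaving out 1 library gave 0 to 1 genes lower in hooks, 0 to 4 higher for hook minus cotyledon, 0 to 2 higher and 0 to 2 lower for hypocotyl minus cotyledon, and 1 to 3 lower for hypocotyl minus hook. Shares of gene copies kept their calls in each of these 18 settings. Over single genes, 10 genotype values gained a call, 4 lost it and 2611 did neither. For differences of effects these counts were 38, 17 and 2570, and for organs 8, 8 and 5234. The causes were not tested. Same-numbered libraries of pifq and WT within an organ deviated together weakly, with correlations of -0.01 to 0.25. Such weak values cannot decide whether the numbers pair libraries, and organs of the same genotype were not compared in this way. The main fit used no pairing. The replicate block gave FD1 in hooks an adjusted p of 0.0479 and changed no other call of a gene. Depth limits the lowest values most, such as those of PSAE1 and PSAG in WT hypocotyl replicate 1, 2.16 and 2.28 FPKM. The overlapped genes PSAG, PSAH1, PSAE1 and PSAH2 remain uncertain.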
